A study of Caenorhabditis elegans with 9 samples.

Results

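Gene expression in the nth-1 mutant of Caenorhabditis elegans was compared with that of the wild-type strain N2 Bristol over every probe set of the Affymetrix GeneChip C. elegans Genome Array that is not a control. The samples were chosen by their strain label, which gives 3 arrays of nth-1 and 2 arrays of N2, or 5 of the 9 arrays in the series, and 22548 of the 22625 probe sets. By the study's methods the nth-1 strain carries the deletion allele ok724 and had been backcrossed, and no treatment is named for these cultures. The series description, in contrast, calls the mutants RNAi mutants, and which of these applies was not settled from the values. The other 4 arrays, 2 of xpa-1(ok698) and 2 of the nth-1;xpa-1 double mutant, entered the fit to estimate the spread between replicates. All strains were grown at the same temperature as mixed-stage populations on plates seeded with HT115(DE3) bacteria, until the food was cleared, so each array averages over larvae, adults and embryos. The replicates came from separate sets of plates. The methods speak of 3 replicates per strain, while 2 arrays of N2 were used here.

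NTH-1 is a DNA glycosylase, an enzyme of base excision repair that cuts out oxidized pyrimidine bases. Base excision repair removes a single damaged base and fills the gap, whereas nucleotide excision repair, to which XPA-1 belongs, removes a short stretch of the strand around a bulky lesion. In a whole worm the intestine carries out most nutrient uptake, fat storage, heme and metal handling, conjugation of foreign compounds and secretion of defence proteins, so gene families of these functions are described first, followed by those of the cuticle, the nervous system, the germ line and the machinery that all cells share.

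The deposited values are log2 expression values, with array medians between 7.43 and 7.69. All differences below are nth-1 minus N2 on that log2 scale, and "passed" means an adjusted p under 0.05 in limma, with Benjamini-Hochberg adjustment over all 22548 probe sets. A gene is represented by its brightest probe set, which gave 17118 genes. The nth-1 transcript itself was 9.63, 9.58 and 9.37 in the nth-1 arrays and 9.63 and 9.32 in the N2 arrays. The groups overlapped, and the difference was 0.05 (standard error 0.24, limma adjusted p 0.916). Whether the probes fall inside the deleted stretch is not known here, so this value checks nothing about the strain label or about whether the strain carries a deletion or received RNAi. None of the 50 genes nearest to nth-1 in gene order, 25 on each side among genes with a probe set, passed in limma. The smallest adjusted p was 0.076, and 9 of the 50 genes were higher at an unadjusted p under 0.05.

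Several features of the arrays bear on every result. The hybridization control BioC was at 8.27, 8.29 and 8.28 in the nth-1 arrays and at 9.63 and 9.84 in the N2 arrays. BioC signal and strain therefore cannot be told apart by these arrays alone, and a block for it rests on the difference between the 2 xpa-1 arrays, of which 1 was high and 1 low. The 2 N2 arrays correlated at 0.994 over probe sets, and nth-1 replicates 1 and 2 at 0.991. The third nth-1 array stood apart, at 0.950 and 0.952 with the other nth-1 arrays, and is described on its own further on. A call is said to hold where it passed with each of the 9 arrays left out in turn.

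At the threshold, 480 genes rose in nth-1, 2.80% of those tested, and 1305 fell, 7.62%. Over probe sets these numbers were 690 (3.06%) and 1574 (6.98%). By the study's own rule, a ratio of unlogged means of at least 1.8 with no test, 1015 probe sets were higher and 1029 lower, so the excess of falls was not seen under that rule. The counts depended on single arrays. Without N2 replicate 1 the probe sets that passed were 55 that rose and 177 that fell, and without N2 replicate 2 they were 61 and 187. Without nth-1 replicate 3 they were 1996 and 4065 (26.9% together), without nth-1 replicate 1 they were 336 and 913, and without nth-1 replicate 2 they were 498 and 1043. Leaving out nth-1;xpa-1 replicate 1 gave 342 and 1000, and leaving out nth-1;xpa-1 replicate 2 gave 342 and 998. Over genes, in the terms used for the families below, 0.245% rose and 0.876% fell without N2 replicate 1, 0.280% and 0.929% without N2 replicate 2, and 8.41% and 19.6% without nth-1 replicate 3. After quantile normalization these shares were 3.52% and 6.18%, with the BioC block 0.123% and 0.351%, and at an unadjusted p under 0.05 in the fit of all arrays 8.96% and 18.4%. Family counts under each of these settings are to be read against these shares.

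Calls that held numbered 37 genes up and 116 down, and 14 and 33 of these also passed with the BioC block.

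Several genes of heme uptake and transport rose in nth-1. C. elegans cannot make heme and takes it from its food. HRG-1 and HRG-4 are heme transporters of intestinal cells, HRG-3 is a secreted peptide that carries heme from the intestine to other tissues, and HRG-7 is a secreted cathepsin-like protein that signals heme status between organs. The hrg-1 values were 11.55, 11.57 and 11.61 in nth-1 and 8.14 and 8.19 in N2, a rise of 3.41 (standard error 0.28, limma adjusted p 0.000405). For hrg-4 they were 7.92, 8.22 and 8.37 against 4.92 and 5.02, a rise of 3.20 (standard error 0.19, limma adjusted p 0.000103). All 3 nth-1 arrays, replicate 3 included, lay far above both N2 arrays for these transporters. Both genes were named because they passed with all arrays, and hrg-1 also because every nth-1 array lay beyond N2. The position of replicate 3 in them is therefore no independent check.

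The hrg-3 values were 6.84, 7.42 and 6.46 in nth-1 and 3.41 and 3.90 in N2, a rise of 3.25 (standard error 0.29, limma adjusted p 0.000612). The hrg-7 values were 13.83, 13.51 and 13.72 against 10.61 and 10.69, a rise of 3.04 (standard error 0.12, limma adjusted p 1.66e-05). The groups did not overlap, and all 4 calls held. With the BioC block hrg-1, hrg-4 and hrg-7 passed, and hrg-3 had an adjusted p of 0.114. These genes were also high in both xpa-1 arrays, where hrg-4 was at 7.51 and 7.55. In the double mutant they went different ways. There hrg-4 was at 3.99 and 4.55 and hrg-7 at 9.45 and 9.45, below both N2 arrays. By contrast, hrg-3 was at 3.68 and 3.68, between the N2 arrays, and hrg-1 at 9.03 and 8.88, above both. The nth-1 and xpa-1 comparisons share the N2 arrays.

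The other heme genes of the list did not pass, with differences of 0.04 for hrg-9, -0.12 for hrg-10, 0.00 for hrg-13 and 0.36 for hrg-14. Among the metal genes of the same list, ftn-1, which codes for the iron store ferritin, fell from 11.62 and 11.69 in N2 to 9.37, 9.50 and 10.46, a difference of -1.88 (limma adjusted p 0.00806). The metallothionein gene mtl-1 fell by 1.44, with the nth-1 arrays at 10.86, 11.12 and 12.08 and the N2 arrays at 12.81 and 12.78. Ferritin and metallothionein were thus lower in every nth-1 array, but in replicate 3 the distance to N2 was smaller. The copper transporter gene cua-1 rose by 0.68. Without N2 replicate 1 and without N2 replicate 2 in turn, 4 of the 24 metal and heme genes rose, the hrg genes, and 0 fell, so the calls of ftn-1, mtl-1 and cua-1 rest on both N2 arrays. At an unadjusted p under 0.05 in the limma fit of all arrays, 6 were higher and 6 lower.

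**Figure D1:**
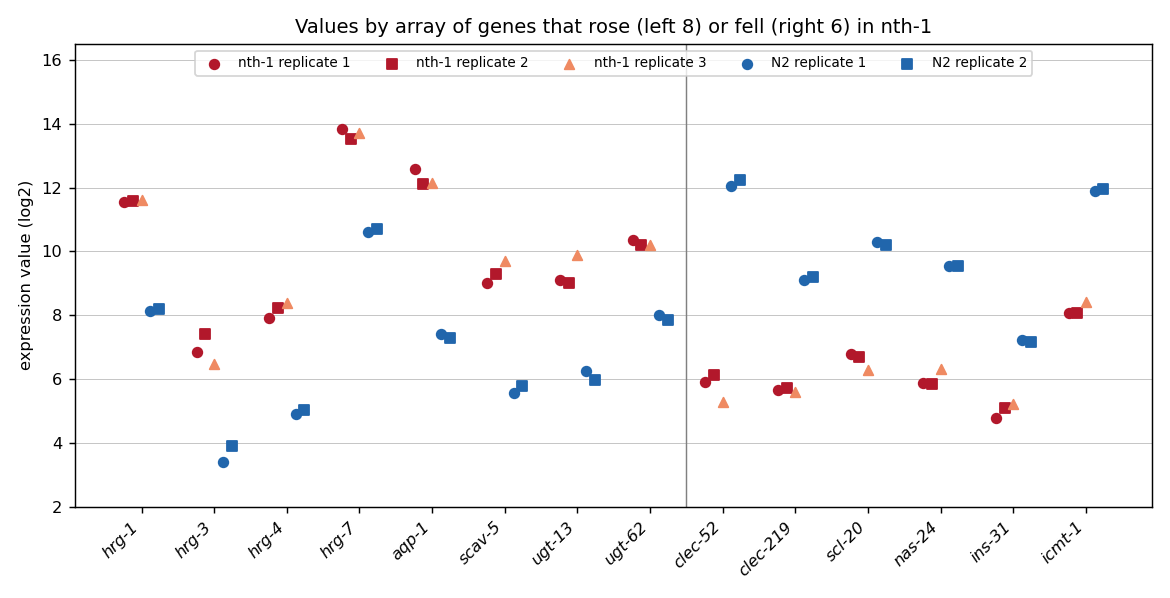
Log2 expression values of 14 genes in the 3 nth-1 arrays (red and orange) and the 2 N2 arrays (blue), 1 marker per array, with 8 genes that rose to the left of the line and 6 that fell to its right. In each gene the nth-1 markers lie on one side of the N2 markers with no overlap, as for hrg-7 at 13.51 to 13.83 against 10.61 and 10.69. The genes were named for calls made with all arrays, and some also for this lack of overlap, so it is a description only.

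Channels and carriers of the intestine and excretory system changed in both directions. The glycerol channel gene aqp-1 was at 12.59, 12.11 and 12.15 in nth-1 and at 7.41 and 7.28 in N2, a rise of 4.94 (standard error 0.29, limma adjusted p 0.000101), which held and passed with the BioC block. Another aquaporin gene, aqp-4, rose by 1.85 from 8.81 and 8.98 to 10.55, 10.79 and 10.89 (limma adjusted p 0.000944), and this call also held. The related gene aqp-7 rose by 1.11 and aqp-8 fell by 1.19, with limma adjusted p up to 0.104 and 0.0867 without N2 replicate 2. The remaining 6 aquaporin genes did not pass. The scavenger receptor-like gene scav-5, a homologue of mammalian CD36, was at 9.02, 9.28 and 9.69 against 5.55 and 5.77, a rise of 3.67 (standard error 0.23, limma adjusted p 0.000127).

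The call of scav-5 held and passed with the BioC block. The folate transporter-like gene folt-2 was at 10.74, 10.78 and 8.62 in nth-1 and at 6.26 and 6.50 in N2, so that replicate 3 lay between the other nth-1 arrays and N2. Its rise of 3.67 had a limma adjusted p of 0.0116, and 0.112 without N2 replicate 1 and 0.0937 without N2 replicate 2. The intestinal peptide transporter gene pept-1 rose by 1.85, from 8.20 and 8.28 to 10.38, 9.83 and 10.07, and lost its call in the same way, at 0.105 and 0.0931. Among ABC transporters, ATP-driven pumps of lipids and foreign compounds, 5 of 53 rose and 1 fell. The largest rises that passed were pgp-9 (1.85), pgp-2 (1.70), haf-1 (1.66) and pgp-1 (1.23), and without either N2 array 0 of the 53 passed in either direction in limma.

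Genes of fat metabolism changed in both directions. The lysosomal lipase gene lipl-3 rose by 3.26 while its relative lipl-2 fell by 1.77, from 12.59 and 12.79 in N2 to 10.91, 11.07 and 10.77 (limma adjusted p 0.000631). Both calls held and both passed with the BioC block, and the remaining 6 lipl genes did not pass, with differences from -0.44 to 0.75. The carboxylesterase gene cest-29 was at 7.77, 7.59 and 8.73 in nth-1 and at 4.41 and 4.55 in N2, a rise of 3.55 (standard error 0.30, limma adjusted p 0.000484) that held, with an adjusted p of 0.0993 under the BioC block.

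Of 18 genes of fatty acid synthesis and desaturation 4 rose and 0 fell, against 5 and 2 at an unadjusted p under 0.05 in limma. All 4 were elongase genes. elo-1 and elo-2 lengthen straight-chain acids, and elo-5 and elo-6 make branched-chain acids. The elo-2 values were 11.56, 11.61 and 11.78 against 10.40 and 10.53, a rise of 1.19 (standard error 0.15, limma adjusted p 0.0028). The rises of elo-6, elo-5 and elo-1 were 0.84, 0.79 and 0.76. The nth-1 arrays lay above both N2 arrays for each elongase gene, yet without N2 replicate 1 none of the 4 passed in limma (elo-2 at 0.0525) and without N2 replicate 2 only elo-2 and elo-6 did, at 0.0397 and 0.0425.

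Genes of fatty acid activation and breakdown included 7 rises and 2 falls among 60. Beside acs-2, an acyl-CoA synthetase gene that rose by 2.40 and held, the acyl-CoA dehydrogenase gene acdh-1 rose by 1.65 and the hydroxyacyl-CoA dehydrogenase gene hacd-1 by 1.51. A second probe set of acs-2 rose more, by 4.72 (limma adjusted p 2.2e-05). The hacd-1 values were 12.28, 11.90 and 12.21 in nth-1 and 10.66 and 10.58 in N2, and the acdh-1 values 11.09, 10.61 and 9.98 against 8.78 and 9.05. Neither set overlapped with N2, though both calls were lost without N2 replicate 1 (0.136 for acdh-1 and 0.0620 for hacd-1) and without N2 replicate 2 (0.0931 and 0.0698). The carnitine palmitoyltransferase gene cpt-4 fell by 2.24, from 9.18 and 9.29 to 7.06, 6.93 and 7.0 (limma adjusted p 0.00381). This fall passed with the BioC block at 0.0111, but had an adjusted p of 0.0510 and 0.0591 without N2 replicates 1 and 2, and a second probe set of cpt-4 fell by 1.48. Without either N2 array 1 of the 60 rose and 0 fell. In the citric acid cycle cts-1, the citrate synthase gene, rose by 0.82 and the aconitase gene aco-2 by 0.69, and their adjusted p without N2 replicate 1 was 0.213 and 0.264.

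Enzymes that modify and conjugate foreign compounds rose and fell side by side. Of 64 UDP-glucuronosyltransferase genes, which attach sugars to small molecules, 9 rose (14.1%) and 5 fell (7.81%). The ugt-13 values were 9.09, 9.01 and 9.88 in nth-1 against 6.26 and 5.96 in N2, a rise of 3.22 (standard error 0.28, limma adjusted p 0.000497). For ugt-62 they were 10.37, 10.19 and 10.20 against 8.0 and 7.84, a rise of 2.33, and for ugt-17 the rise was 2.63. In the other direction, ugt-1 fell by 1.85 from 8.95 and 9.16 to 7.05, 6.98 and 7.59.

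All 4 of these ugt calls held, and ugt-13 and ugt-62 also passed with the BioC block. Leaving out N2 replicate 1 and N2 replicate 2 in turn, 5 and 4 UDP-glucuronosyltransferase genes rose and 1 and 1 fell, and without nth-1 replicate 3 there were 16 and 7. Of 73 cytochrome P450 genes 6 rose and 5 fell, led by cyp-33A1 (2.11), cyp-35B1 (-1.94) and cyp-13A1 (1.91). The cyp-35B1 fall held, with 8.49, 8.18 and 8.61 against 10.30 and 10.44. The other P450 calls named did not, with adjusted p of 0.0622 for cyp-33A1 and 0.122 for cyp-13A1 without N2 replicate 1.

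Of 45 glutathione S-transferase genes 6 rose and 7 fell. The omega-class gene gsto-1 rose by 1.68, from 10.49 and 10.69 to 12.40, 12.23 and 12.17 (limma adjusted p 0.000773), and gst-42 fell by 1.77, from 10.82 and 10.86 to 9.06, 9.25 and 8.89 (limma adjusted p 0.000967). Both held, neither with the BioC block (0.108 and 0.0993). The falls of gst-20 (-1.62) and gst-3 (-1.56) had adjusted p of 0.0503 and 0.0541 without N2 replicate 1. Without N2 replicate 1, 1 glutathione S-transferase gene rose and 1 fell, and without N2 replicate 2 there were 2 and 2.

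Secreted defence proteins fell more often than they rose. C-type lectins, sugar-binding proteins of which many answer to bacteria, had 45 falls (20.5%) and 8 rises (3.64%) among 220 genes, with a median of -0.30 against -0.07 over all genes. The largest fall of any gene was clec-52, at 5.90, 6.14 and 5.27 in nth-1 and 12.06 and 12.25 in N2, a difference of -6.38 (standard error 0.25, limma adjusted p 1.66e-05). For clec-219 the values were 5.66, 5.73 and 5.60 against 9.11 and 9.20, a difference of -3.49 (standard error 0.23, limma adjusted p 0.000127). Both held and both passed with the BioC block. For clec-137 they were 3.84, 3.68 and 5.0 against 8.18 and 8.06, a difference of -3.95 that held but had an adjusted p of 0.0935 with the block.

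The lectin counts changed with the arrays used. Without N2 replicate 1 there were 13 falls and 0 rises, without N2 replicate 2 there were 13 and 1, and without nth-1 replicate 3 there were 67 and 15. After quantile normalization 36 fell and 7 rose, and the median was -0.20. A further gene, clec-61, was at 8.07, 7.86 and 9.42 against 11.38 and 11.57. Its difference of -3.02 had an adjusted p of 0.0541 without N2 replicate 1.

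Of 71 genes of lysozymes, saposin-like proteins and antimicrobial peptides 17 fell (23.9%) and 1 rose, with a median of -0.33. The caenacin gene cnc-7, a glycine-rich antimicrobial peptide, fell by 3.35, from 10.93 and 11 to 7.91, 7.94 and 6.98 (limma adjusted p 0.00259), and this call held. The defensin-like gene abf-2 was at 7.48, 7.27 and 10.08 against 11.04 and 11.03, so replicate 3 lay nearer to N2 than to the other nth-1 arrays, and its difference of -2.76 passed at 0.0454 and was lost when any array but nth-1 replicate 3 was left out, up to 0.233 without N2 replicate 1. The lysozyme gene lys-7 fell by 1.86 (0.0816 and 0.0944 without N2 replicates 1 and 2), and the saposin-like gene spp-23 was the only member that rose, by 1.94 (0.0534 and 0.0655). Without either N2 array 2 of the 71 fell and 0 rose, and without nth-1 replicate 3 there were 32 and 5.

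Among families of proteases and other secreted proteins falls outnumbered rises, as they did over all genes (7.62% and 2.80%). Of 26 cathepsin and aspartyl protease genes 7 fell (26.9%) and 3 rose (11.5%), both above the shares of all genes. The cathepsin B-like gene cpr-2 was at 6.13, 6.21 and 8.46 in nth-1 and 11.15 and 11.22 in N2, a difference of -4.25 (standard error 0.60, limma adjusted p 0.00469, and 0.0573 and 0.0641 without N2 replicates 1 and 2). The aspartyl protease gene asp-14 was at 10.51, 10.29 and 10.17 against 12.34 and 12.45, a difference of -2.07 (limma adjusted p 0.000175). Against these, the cathepsin B-like gene cpr-8 rose by 3.67, from 6.64 and 6.52 to 10.75, 10.44 and 9.56 (standard error 0.39, limma adjusted p 0.00127), a call that held but had an adjusted p of 0.179 with the BioC block. The aspartyl protease gene asp-11 rose by 1.62, with an adjusted p of 0.0459 that reached 0.245 without N2 replicate 2. The astacin metalloprotease gene nas-24 was at 5.89, 5.86 and 6.30 against 9.53 and 9.55, a difference of -3.52 (standard error 0.17, limma adjusted p 4.13e-05).

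The calls of asp-14 and nas-24 held and passed with the BioC block. Of 33 astacin genes 4 fell (12.1%) and 2 rose (6.06%), and without N2 replicates 1 and 2 in turn 1 and 2 fell and 0 rose. Among the SCP genes, whose secreted proteins resemble venom allergens, 11 of 27 fell (40.7%) and 0 rose, also at an unadjusted p under 0.05 in limma, where 17 were lower. Their median was -0.71, or -0.59 after quantile normalization, when 8 fell. The scl-20 values were 6.79, 6.69 and 6.29 against 10.29 and 10.20, a difference of -3.65 that held and passed with the BioC block, and scl-8 fell by 3.91 from 9.60 and 9.32 to 5.42, 4.98 and 6.26, a call that held. Without N2 replicates 1 and 2 in turn 4 and 3 SCP genes fell. The transthyretin-like genes had a median of -0.40, with 4 of 40 falls and 1 rise, and 0 calls without either N2 array.

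Bestrophins, chloride channels of the cell membrane, had 1 rise and 3 falls among 25 genes. The rise, best-1, was among the largest of all, with 10.86, 11.03 and 12.33 in nth-1 and 7.40 and 7.55 in N2, a difference of 3.93 (standard error 0.39, limma adjusted p 0.000944). All 3 nth-1 arrays lay above N2, as the rule for the largest rises required, and replicate 3 was the highest. The call held, with an adjusted p of 0.103 under the BioC block, and without either N2 array none of the falls passed in limma.

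Cuticle genes showed small shifts. Of 146 collagen genes 9 rose (6.16%) and 2 fell, among them col-98 (1.56) and col-165 (-1.50). The col-165 values were 7.23, 7.25 and 7.23 in nth-1 and 8.69 and 8.79 in N2, and the call passed with the BioC block at 0.0250, but at 0.0671 without N2 replicate 1. The collagen gene sqt-1, which shapes the body, rose by 1.38 from 5.95 and 6.03 to 7.63, 7.49 and 7.0. Without either N2 array 0 collagen genes passed in limma, without nth-1 replicate 3 there were 49 rises and 13 falls, and at an unadjusted p under 0.05 in all arrays 31 were higher and 9 lower.

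Other cuticle-related families had 5 rises and 3 falls among 97 hedgehog-related, patched-related and molting genes. Of these grl-28, a ground-like hedgehog-related gene, fell by 1.25 from 8.24 and 8.44 to 7.15, 7.03 and 7.08 and held, while the molting metalloprotease gene nas-37 rose by 1.67 (0.200 without N2 replicate 1). Of 58 abu and pqn genes with prion-like repeats 7 fell and 0 rose, with 15 and 1 at an unadjusted p under 0.05 in limma. Without N2 replicates 1 and 2 in turn 0 and 1 of them fell.

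Peptide signals had medians below N2, with replicate 3 the highest nth-1 array in the genes given here by array. Of 83 neuropeptide genes 7 fell (8.43%) and 1 rose (1.20%), shares near those of all genes, but the median was -0.35. The FMRFamide-like gene flp-1 was at 7.43, 7.5 and 9.60 in nth-1 and 10.94 and 10.90 in N2, a difference of -2.74 (standard error 0.59, limma adjusted p 0.0234). The nlp-49 values were 6.31, 6.83 and 7.51 against 8.98 and 8.89, a difference of -2.05. For both genes replicate 3 was the highest of the nth-1 arrays. Without nth-1 replicate 3, 37 neuropeptide genes fell and 4 rose, and without N2 replicate 1 or N2 replicate 2, 0 passed in limma.

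Among 24 insulin-like peptide genes 3 fell and 0 rose, with 7 lower and 0 higher at an unadjusted p under 0.05 in limma. The ins-31 values were 4.78, 5.10 and 5.21 against 7.23 and 7.17, a difference of -2.17 (standard error 0.19, limma adjusted p 0.0005). For ins-35 they were 7.96, 8.24 and 8.73 against 10.45 and 10.46, a difference of -2.15 (limma adjusted p 0.00171). Both held, though with the BioC block their adjusted p was 0.102 and 0.161. The third call, ins-1, fell by 1.16, and it was lost when any array but nth-1 replicate 3 was left out of these 2 strains. The members ins-22 (5.25, 5.18 and 7.88 against 7.14 and 7.18) and ins-23 (7.77, 8.16 and 10.06 against 9.08 and 8.98) did not pass, and in them replicate 3 lay above N2 while the other nth-1 arrays lay below it.

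Synaptic genes were little changed as a group, with 2 rises and 1 fall among 42. The vesicular glutamate transporter gene eat-4 rose by 1.38, from 5.86 and 5.73 to 6.95, 7.0 and 7.56, and complexin cpx-1 by 0.89. A second probe set of eat-4 differed by 0.335 and did not pass (limma adjusted p 0.288). The GABA transporter gene unc-47 fell by 0.96. Among ligand-gated channels 4 of 95 rose and 7 fell, led by the acetylcholine receptor subunit gene unc-38, at 7.40, 7.45 and 8.17 against 9.62 and 9.56, a difference of -1.92. Adjusted p without N2 replicate 1 were 0.0672 for eat-4, 0.0808 for cpx-1, 0.178 for unc-47 and 0.0525 for unc-38. None of the 42 synaptic and 95 channel genes passed in limma without N2 replicate 1, and without N2 replicate 2, 2 channel genes fell.

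Dim genes carried most of the falls. The chemoreceptors, G protein-coupled receptors expressed in few sensory neurons each, had 179 falls (14%) and 2 rises among 1283 genes, with a median of -0.25. The largest change was a rise, srh-2 by 1.96, with 8.31, 8.16 and 6.63 against 5.66 and 5.83 and an adjusted p of 0.0372 that reached 0.224 without N2 replicate 1. The srz-19 values were 5.90, 5.76 and 5.53 against 7.20 and 7.11, a difference of -1.43 (limma adjusted p 0.00132), and the receptor guanylate cyclase gene gcy-3 fell by 1.41 from 8.38 and 8.40 to 7.02, 6.87 and 7.05 (limma adjusted p 0.00198). Both held. After quantile normalization the chemoreceptor falls numbered 106 and the median was -0.13. Without either N2 array 10 fell and 0 rose, and with the BioC block 0 passed.

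This dependence on the normalization was found for dim genes in general. When the 17118 genes were divided into 5 groups of equal size by their mean level over the 5 arrays, the dimmest 3 groups had medians of -0.14, -0.16 and -0.12 and 255, 429 and 357 falls. The brightest 2 groups had medians of 0.03 and 0.01 and 150 and 114 falls. After quantile normalization, which gives every array the same distribution, the 5 medians were between -0.04 and -0.01, the dimmest 3 groups had 136, 269 and 313 falls, and rises made up 41.7% of the called probe sets in place of 30.5%. The part of signal near background in the falls of dim families was not tested.

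**Figure D2:**
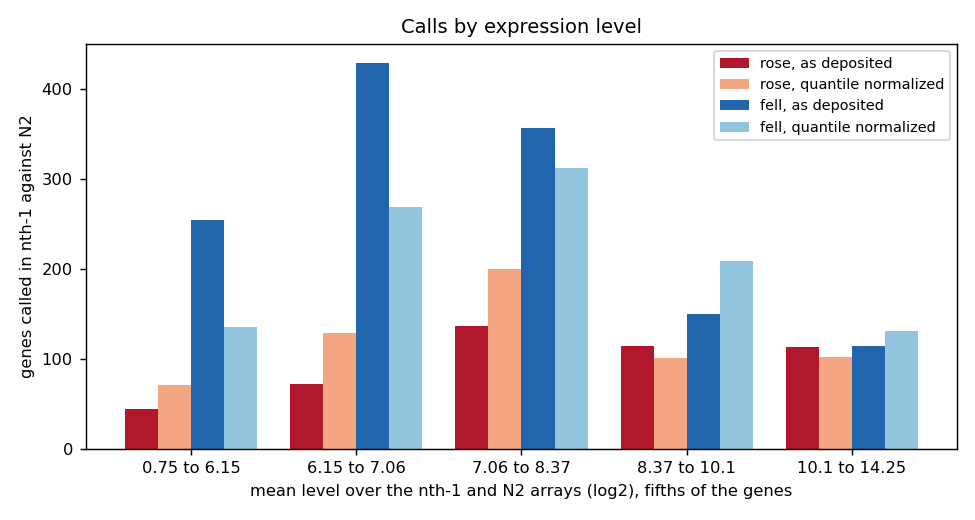
Number of genes called in nth-1 against N2 in 5 groups of equal size by mean log2 level, as deposited (dark bars) and after quantile normalization (light bars), with rises in red and falls in blue. The falls of the second dimmest group drop from 429 to 269 after quantile normalization, while those of the fourth increase from 150 to 209.

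Among adaptor genes of protein turnover, F-box genes fell more often than all genes (7.62%) and rose less often (2.80%). Of 310 F-box genes of the FBXA, FBXB and FBXC families, whose products present proteins for ubiquitination, 39 fell (12.6%) and 4 rose (1.29%), with a median of -0.25, or -0.16 after quantile normalization, when 27 fell. These genes are dim, with a median N2 level of 6.64, within the second dimmest group above (6.15 to 7.06). In that group 429 of 3424 genes fell and 72 rose, so the F-box share of falls was near that of genes of like level. The fbxa-172 values were 4.66, 4.78 and 5.50 against 6.98 and 7.13, a difference of -2.08, and fbxa-185 fell by 2.0 from 7.41 and 7.63 to 5.27, 5.32 and 5.98. Both held. Without N2 replicates 1 and 2 in turn 5 and 7 F-box genes fell and 0 rose, and without nth-1 replicate 3 there were 103 falls and 18 rises.

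Of 103 MATH and BTB domain genes, adaptors of another ubiquitin ligase, 11 fell (10.7%) and 7 rose (6.80%). Both shares were above those of all genes, 7.62% and 2.80%. Their median N2 level of 7.01 also lay within the second dimmest group, and their share of falls was not above that of the group. The math-10 values were 5.97, 5.72 and 5.92 against 4.06 and 4.0, a rise of 1.84 (standard error 0.15, limma adjusted p 0.00036), and math-41 rose by 1.84 from 4.93 and 4.61 to 6.56, 6.62 and 6.64 (limma adjusted p 0.000484). In contrast btb-18 fell by 1.45 from 8.57 and 8.57 to 7.10, 7.18 and 7.07. All 3 calls held, and with the BioC block the adjusted p was 0.0675 for math-10 and 0.0930 for math-41. Without N2 replicates 1 and 2 in turn 2 and 2 genes of this family rose and 2 and 1 fell.

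Among transcription factors, 8 of 60 ceh homeobox genes fell (13.3%) and 1 rose. The ceh-62 values were 7.16, 7.14 and 7.47 against 8.42 and 8.52, a difference of -1.21, and ceh-28 fell by 0.94. Of 254 nuclear hormone receptor genes 8 fell and 4 rose, with nhr-208 up by 1.24 and nhr-239 differing by -1.20. Without N2 replicate 1 or N2 replicate 2, 0 homeobox genes passed in limma and 1 nuclear hormone receptor gene fell.

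**Figure D3:**
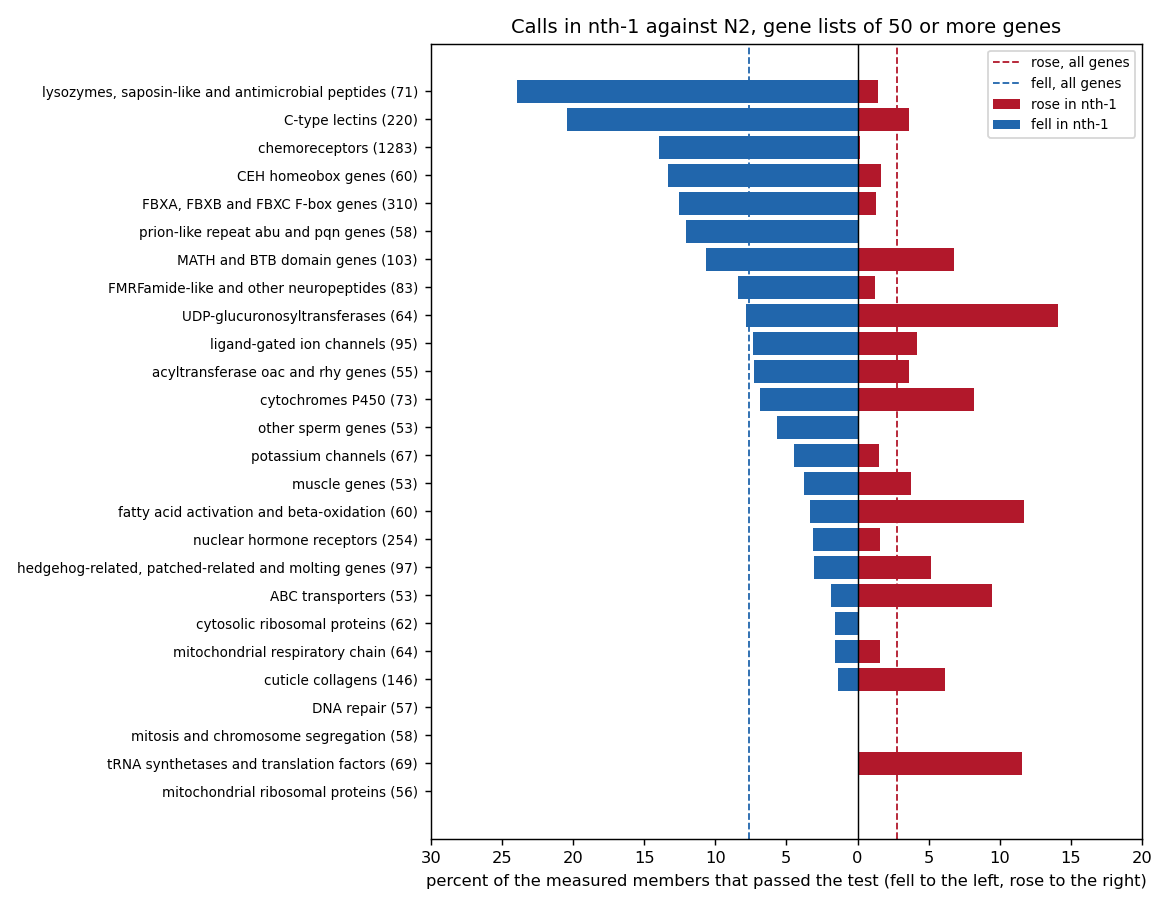
Percent of the measured members that rose (red, to the right) or fell (blue, to the left) in nth-1 against N2, for each gene list of 50 or more genes, with the number of genes in brackets and dashed lines at 2.80% and 7.62% for all genes. Lysozymes and antimicrobial peptides (23.9%) and C-type lectins (20.5%) have the longest bars of falls, and UDP-glucuronosyltransferases (14.1%) the longest bar of rises.

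The machinery of protein synthesis and breakdown showed small rises. Of 33 proteasome subunit genes 4 rose and 0 fell, with a median of 0.37, and 17 were higher and 0 lower at an unadjusted p under 0.05 in limma. The core subunit genes pas-7 and pas-4 rose by 0.81 and 0.69, pas-7 from 10.55 and 10.43 to 11.47, 11.24 and 11.18. Of 69 genes of tRNA synthetases and translation factors 8 rose (11.6%) and 0 fell, with 22 and 0 at an unadjusted p under 0.05, led by eif-3.I (1.12) and the guanine exchange factor subunit gene eif-2Bepsilon (1.11), the latter from 8.19 and 8.42 to 9.65, 9.29 and 9.31. The nth-1 arrays lay above N2 in each of these genes.

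None of these calls passed without N2 replicate 1 or without N2 replicate 2 in limma, and without nth-1 replicate 3, 13 proteasome and 24 translation genes rose. Of 62 cytosolic ribosomal protein genes 0 rose and 1 fell, rpl-29 by 0.37, with 6 higher and 3 lower at an unadjusted p under 0.05. The 64 genes of the mitochondrial respiratory chain had 1 rise, atp-2 by 0.50, and 1 fall, cox-7C by 0.67. Of 56 mitochondrial ribosomal protein genes 0 passed in limma with all arrays, with 3 higher and 0 lower at an unadjusted p under 0.05, and 18 rose without nth-1 replicate 3.

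Genes of the germ line and of DNA metabolism passed rarely. Of 57 DNA repair genes 0 passed in limma, although at an unadjusted p under 0.05, 10 were higher and 3 lower, and their median was 0.12. The same holds for 38 replication genes (3 higher and 1 lower at an unadjusted p under 0.05), 58 genes of mitosis (4 and 1), and 38 oocyte and eggshell genes (6 and 2). Without nth-1 replicate 3 there were 7 rises and 5 falls among the repair genes. Of 26 argonaute genes, which bind small RNAs, 2 rose and 0 fell, against 8 and 0 at an unadjusted p under 0.05 in limma. The Piwi-family gene prg-2 rose by 1.54, from 9.83 and 9.80 to 11.73, 11.28 and 11.05, with adjusted p of 0.0688 and 0.0734 without N2 replicates 1 and 2.

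Male-expressed genes were lower where they passed, whereas sperm genes fell no more often than all genes. Of 15 male-expressed genes 4 fell and 0 rose, with 9 and 0 at an unadjusted p under 0.05 in limma and a median of -0.49, or -0.36 after quantile normalization, and clec-219 described above is 1 of the 4. The transcription factor gene mab-3 was at 5.68, 5.82 and 5.71 against 6.56 and 6.61, a difference of -0.85, and cwp-2, expressed in ciliated neurons of the male, fell by 1.10 from 5.64 and 5.31 to 4.36, 4.36 and 4.41. Without N2 replicates 1 and 2 in turn 1 and 2 male genes fell, and mab-3 had adjusted p of 0.0541 and 0.0651. Fewer males in the cultures and less RNA per male cannot be told apart in whole-population RNA. Of 53 other sperm genes 3 fell (5.66%, against 7.62% of all genes) and 0 rose, with a median of -0.06. At an unadjusted p under 0.05 in limma 6 of them were lower and 0 higher. Of 23 major sperm protein genes 0 passed in limma, also at an unadjusted p under 0.05.

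Stress genes of the heat shock class fell in 2 of 12 cases. The small heat shock protein genes hsp-16.41 and hsp-16.2 were at 4.81, 4.83 and 6.58 against 8.83 and 8.93, and at 5.66, 5.93 and 7.54 against 9.48 and 9.35. The differences of -3.47 and -3.04 had limma adjusted p of 0.00488 and 0.00734, and without N2 replicate 1 of 0.0578 and 0.0801. Replicate 3 was the highest nth-1 array for both. A related gene, hsp-17, did not pass and was at 8.73, 9.05 and 10.93 against 7.99 and 7.74. Of 24 genes of superoxide dismutases, catalases and peroxidases 3 fell and 0 rose (4 and 1 at an unadjusted p under 0.05 in limma), all 3 of them glutathione peroxidase genes, gpx-6, gpx-2 and gpx-4, at -1.42, -0.95 and -0.62. Without either N2 array 0 passed.

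The largest changes of all also included genes without a described role in these files. Beyond aqp-1 and clec-52, C23G10.11 rose by 5.26, T22F3.11 by 5.12 and R193.2 by 3.63. A second probe set of T22F3.11 rose by 6.53. The R193.2 values were 9.17, 9.09 and 9.80 against 5.87 and 5.58, but a second probe set of that gene differed by -0.45 and did not pass. C35B1.3, ZK1290.11, F59B2.12, K12H6.9, srlf-18, K12H6.4 and K03D3.5 each fell, with differences from -4.35 to -3.93. For K12H6.9 the values were 4.04, 4.52 and 4.44 against 8.58 and 8.48, a difference of -4.20 (standard error 0.17, limma adjusted p 1.66e-05), and for icmt-1 they were 8.07, 8.08 and 8.41 against 11.89 and 11.95, a difference of -3.73. Each of these calls, made on the brightest probe set of the gene, held.

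Some called genes lie next to each other. In gene order 23 runs of 3 or more adjacent genes passed in the same direction, 22 of them falls. The longest held 5 genes on chromosome V, with ins-35, K02E2.6, K02E2.7, F53H2.1 and cnc-7 at -2.15, -1.45, -1.28, -2.18 and -3.35. On chromosome II clec-136, clec-137 and clec-138 differed by -0.94, -3.95 and -1.90, and K12H6.4 and K12H6.9 lay beside K12H6.5. The only run of rises, on chromosome IV, was K08D8.3, K08D8.4 and K08D8.5, up by 1.30, 1.58 and 1.25. The share of genes that fell was highest on V (9.16%) and II (8.73%) and lowest on I (5.29%), and cross-hybridization between neighbouring copies of a gene was not tested.

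The third nth-1 array differed from the other nth-1 arrays more widely than they differed from each other. Over all probe sets, its deviation from the mean of replicates 1 and 2 had a standard deviation of 0.664, against 0.286 for replicate 2 minus replicate 1 and 0.232 for the N2 pair. It lay at least 1 above that mean in 2065 probe sets and at least 1 below in 562, so the deviation was mostly upward. Its BioC signal was like that of the other nth-1 arrays. No test was made of a single array.

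The position of replicate 3 was then read for the 6061 probe sets called in the fit without it, 26.9% of those tested. In 4358 of them (71.9%) it lay beyond both N2 arrays in the same direction as the other nth-1 arrays, and in 1319 (21.8%) beyond both in the other direction. These probe sets were chosen by a contrast with the same 2 N2 arrays against which replicate 3 was then placed, so the shares are not independent of that choice. They are given as a description, and the share that would be found without a common change was not determined. The share in the same direction was 80.7% of rises and 67.6% of falls, and it was greater for larger changes, up to 59 of 62 probe sets that changed by at least 3. The median distance of replicate 3 from N2 was 0.557 of that of the other nth-1 arrays. Quantile normalization left the share in the same direction at 72.1%. The largest rises and falls named by rule above were chosen with every nth-1 array beyond both N2 arrays. The side on which replicate 3 lay was fixed by that choice, so these genes cannot show whether it shared the large changes. Among all falls called without replicate 3, it lay beyond both N2 arrays in the other direction in 26.5%. Among the falls of at least 3 this share was 7.5%.

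**Figure D4:**
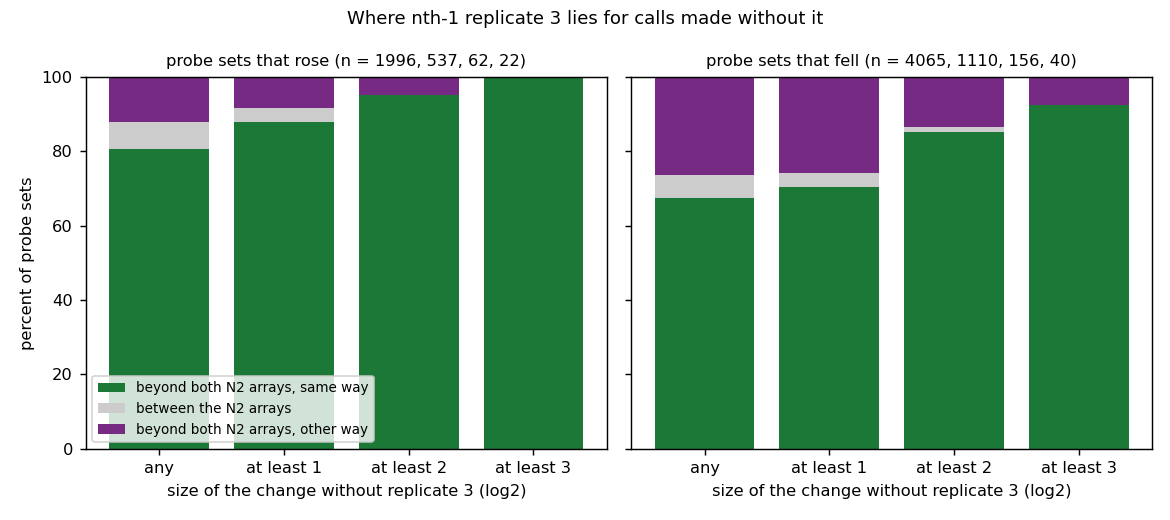
Percent of the probe sets called without nth-1 replicate 3 in which that array lay beyond both N2 arrays in the same direction (green), between them (grey) or beyond both in the other direction (purple), by the size of the log2 change, for rises (left) and falls (right). The green part grows from 80.7% to 100% for rises and from 67.6% to 92.5% for falls as the change becomes larger.

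By gene list, replicate 3 was low for yolk, sperm and collagen genes. Over all 17118 genes it lay above both other nth-1 arrays in 7506 and below both in 6708. The counts by list from here on are to be read against these numbers. All 23 major sperm protein genes were below both other nth-1 arrays, with a median deviation of -1.05. For msp-63 the nth-1 values were 10.26, 10.43 and 8.68, against 9.85 and 9.67 in N2. The 5 sperm marker genes were likewise all lower, and their summed level was 11.14, 11.11 and 10.11 in nth-1 and 10.64 and 10.61 in N2. Of the 5 vitellogenin genes, which code for yolk proteins made by the adult intestine, 4 were lower, vit-5 at 14.48, 14.44 and 12.46 against 14.31 and 14.31, and vit-1 at 13.15, 13.10 and 10.31 against 11.17 and 11.35.

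The adult collagen gene col-19 was at 12.49, 12.29 and 9.86 against 12.56 and 12.57, and col-129 at 12.45, 12.59 and 7.99 against 11.37 and 11.44. Over the 4 hypodermis markers the summed level was 12.79, 12.56 and 10.84 in nth-1 against 12.78 and 12.81, a sum carried by col-19. Of the others, rol-6 and bli-1 deviated by -0.66 and -0.65 in replicate 3, while dpy-7 was at 7.84, 7.73 and 8.23, highest in replicate 3. Collagen genes had a median deviation of -0.46, whereas cuticlins (0.30, 23 of 34 above both other nth-1 arrays) and the hedgehog-related, patched-related and molting genes (0.305, 61 of 97 above) deviated the other way. For mitochondrial ribosomal protein genes the median deviation was -0.62, with 48 of 56 below both other arrays. Markers of oocytes and embryos had a median deviation of -0.03 and a summed level of 15.03, 14.78 and 15.15 against 15.07 and 15.09. Their members went both ways, from 1.4 for mex-5 to -0.515 for egg-1. Of these 8 markers 3 lay above and 2 below both other nth-1 arrays. A different mix of stages in the culture of replicate 3 was not tested.

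Other lists were high in replicate 3. Of 18 genes of the p38 and JNK stress kinase pathways 17 were above both other nth-1 arrays, with a median deviation of 0.84. The adaptor gene tir-1 was at 9.75, 10.07 and 12.26 against 10.68 and 10.62 in N2, and the kinase gene mlk-1 at 8.04, 8.01 and 10 against 8.75 and 8.83. In both, replicate 3 was above N2 and the other nth-1 arrays below. Neuropeptide genes had a median deviation of 0.78, small heat shock protein genes of 0.77, and genes of intraflagellar transport of 0.44, with 29 of 35 above.

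The largest single deviations upward among bright probe sets were C53C11.4, at 7.53, 7.87 and 11.73 against 7.78 and 7.74, and T02H6.3, at 8.24, 8.57 and 12.41 against 8.43 and 8.62. In these the other nth-1 arrays were near N2. Both probe sets had parallel values over the arrays, and a signal shared between them was not tested. The tubulin gene tbb-6, at 6.80, 6.77 and 10.78 against 9.17 and 9.39, and the invertebrate lysozyme gene ilys-3, at 9.01, 9.35 and 12.76 against 13.06 and 13.03, were low in replicates 1 and 2 and near or above N2 in replicate 3. None of the genes of this paragraph passed in limma with all arrays, with adjusted p from 0.113 to 0.515.

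**Figure D5:**
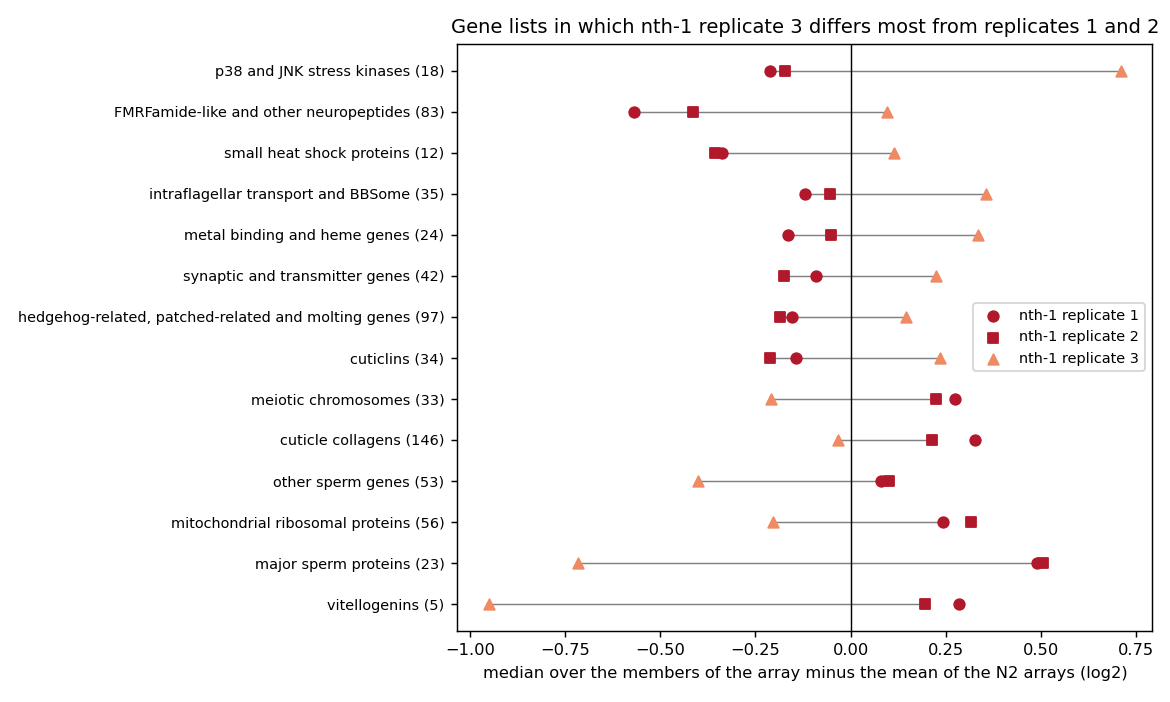
Median over the members of each gene list of the array value minus the mean of the N2 arrays (log2), for nth-1 replicates 1, 2 and 3, in the lists whose median deviation of replicate 3 from the other nth-1 arrays was at least 0.3 in size, with the number of genes in brackets. Replicate 3 lies to the left of the other nth-1 arrays for the 5 vitellogenin and 23 major sperm protein genes, and to the right for the 18 stress kinase and 83 neuropeptide genes.

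A direct test against the xpa-1 arrays, which share no array with nth-1, was made for the 185 genes named by rule that passed in nth-1 against N2. In limma 0 of them differed between nth-1 and xpa-1, although 26 did at an unadjusted p under 0.05. The share of all probe sets at that unadjusted p was not determined for this contrast. With nth-1 replicate 3 left out, 8 of the 185 passed, a smaller share than the 1173 of 22548 probe sets that did. For hrg-7 the xpa-1 values were 13.44 and 13.62, a difference of 0.16 (standard error 0.125), and for aqp-1 they were 11.86 and 12.89, a difference of -0.09 (standard error 0.295). For clec-52 xpa-1 was at 6.95 and 6.98, a difference of -1.20 (adjusted p 0.367). A missed threshold does not show that the mutants were alike. Over all probe sets 6 (0.0266%) passed between the single mutants, among them xpa-1 itself, and 1173 when nth-1 replicate 3 was left out.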

How the data were processed

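The authors scanned 1 Affymetrix array per sample and processed the scans in dChip (invariant-set normalization, model-based index from perfect-match probes), and they deposited log2 values, which were used as given. No raw array files were used. Samples were grouped by strain label. The fit was made with limma 3.58.1 in R 4.3.3 (lmFit, then eBayes with a variance trend), with a separate mean for each strain over all 9 arrays, which leaves 5 residual degrees of freedom. P-values were adjusted by Benjamini-Hochberg over 22548 probe sets, with a threshold of 0.05, whereas the study's methods used a fold threshold of 1.8. P-values measure only the spread between these arrays, whose number limits the precision.

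Of these probe sets 20766 carry 1 gene symbol in the platform annotation, 887 several and 895 none, and 20701 were found in RefSeq (WBcel235) by gene ID, which gave gene order. A gene with several probe sets was represented by its brightest. The 61 gene lists and the genes named were chosen with earlier results of these data known. Named by rule were nth-1, the 12 largest rises and 12 largest falls among calls with every nth-1 array beyond both N2 arrays, up to 4 called members per list, the 8 largest deviations of nth-1 replicate 3 each way among bright probe sets, and 2 members of each list whose median deviation was above 0.5. Named after their values were seen were hrg-9, hrg-10, hrg-13, hrg-14, ftn-1, mtl-1, cua-1, ins-22, ins-23, the pals genes and the neighbours in runs. Alternative settings are given in the closing section. The fit was tested on simulated data, and figures were drawn with matplotlib 3.10.9.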

Additional observations from a re-analysis of the deposited data

Results flagged for a closer look

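In the limma fit of all 9 arrays, 6 probe sets passed in the direct test of nth-1 against xpa-1, and each is listed here because the single mutants differed in it. The xpa-1 gene itself was higher in nth-1 by 4.39, at 10.69, 10.51 and 10.35 in nth-1 and 6.59 and 5.66 in the xpa-1 arrays. Its neighbour in gene order on chromosome I, mks-6, differed by -4.29 and was at 5.98, 6.06 and 6.38 in nth-1 and 10.66 and 10.19 in xpa-1. On chromosome V mnr-1 differed by 1.88, at 9.35, 9.28 and 9.36 against 7.36 and 7.55. On chromosome IV ZK616.8 differed by 2.13, at 6.10, 5.79 and 6.05 against 3.58 and 4.12, and a probe set shared by ZK616.8 and M04G7.2 by 1.35. A probe set without a gene symbol differed by -1.74. In all 6 the arrays of the strains did not overlap, and with nth-1 replicate 1, nth-1 replicate 2 or either xpa-1 array left out 2 probe sets passed.

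The 77 control probe sets were not tested between strains, and of them only the BioC signal entered a fit, as a block. Of these controls 1 lay higher in every nth-1 array than in both N2 arrays by more than 0.5, with means of 8.72 and 7.20 and a difference of 1.53. By the same measure 5 lay lower in nth-1, 4 for BioC, with gaps of 1.10 to 1.54, and 1 for the dap control, with a gap of 0.51. Its part in the results was not tested.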

How the results depend on the processing

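With 1 of the 9 arrays left out at a time, the probe sets that rose numbered from 55 to 1996, those that fell from 177 to 4065, and the called members of the gene lists, 559 of 4540 genes with all arrays, from 65 to 1318. The lowest of these counts came without N2 replicate 1 and the highest without nth-1 replicate 3. Of the genes named by rule that passed, 0 to 8 differed between nth-1 and xpa-1 with an array of these strains left out. With nth-1 and N2 arrays alone 290 rose, 722 fell and 276 list members were called. With the BioC block these counts were 26, 71 and 31. With a replicate block, which treats same-numbered arrays as paired and in which nth-1 replicate 3 has no partner and so drops out of the contrast, they were 1578, 3494 and 1125. The deviations of same-numbered nth-1 and N2 arrays from their strain means correlated at 0.032 and -0.136. The deviations of the N2 arrays are opposites of each other, and the nth-1 mean includes replicate 3. These correlations therefore cannot decide whether same-numbered arrays were paired. Among probe sets above the 40th percentile of mean level, of which 13523 were tested, 750 fell and 252 list members were called. By a ratio of unlogged means of at least 1.8, with no test, 1015 were higher and 1029 lower, in place of 690 and 1574. The cause of the other shifts was not tested. Quantile normalization, 32 added before the logarithm and a fit without the variance trend left the counts that rose, the counts that fell and the list members each within 1.5 times. No named gene called with all arrays changed direction in any setting. With 2 N2 arrays, most calls rest on both, and the depth of signal over background cannot be read from these values.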

Other observations

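The pals genes, a family of which several members rise in worms infected by intracellular pathogens, were looked at after their values were seen and are described without a test of the family. Of 23 measured, 0 rose and 2 fell in limma against N2. The calls were pals-31, at 7.40, 7.63 and 8.15 in nth-1 and 9.81 and 9.96 in N2, a difference of -2.16, and pals-38, a difference of -2.64. The pals-31 call passed whichever array was left out, and the pals-38 call, at an adjusted p of 0.0459, was lost when any array but nth-1 replicate 3 was left out. The median of the family was -0.48, and 16 fell without nth-1 replicate 3.

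Replicate 3 lay above both other nth-1 arrays in 23 of the 23 genes, against 7506 of all 17118 genes, with a median deviation of 1.27. The pals-33 values were 5.44, 5.61 and 8.77 in nth-1 and 8.79 and 8.97 in N2. For pals-5 they were 4.44, 4.03 and 6.68 against 5.57 and 5.67, and for pals-26 they were 8.72, 8.84 and 11.44 against 10.76 and 11. In these 3 genes nth-1 replicates 1 and 2 lay below N2, and replicate 3 was near or above it.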
